A study of Homo sapiens with 6 samples.

Results

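Cytokine messenger RNAs are short-lived, and a small set of RNA-binding proteins sets how long they persist. Described here are 10 genes of this kind, taken by name, which were 10 of the 47432 genes listed in each table: ZC3H12A, ZC3H12C, ZFP36, ZFP36L1, ZFP36L2, RC3H1, RC3H2, ELAVL1, KHSRP and HNRNPD. They were picked with earlier results of these data known, the larger fall of exon than of intron reads of cytokine genes among them. Expression was measured by RNA-seq of bulk total RNA from LOX-IMVI, an established human melanoma cell line. Cells transduced with a lentiviral control short hairpin RNA (shCtrl, 3 libraries) were compared with cells transduced with a hairpin against NFKBIZ (shNFKBIZ, 3 libraries). NFKBIZ encodes IκBζ, a nuclear co-regulator of NF-κB that LOX-IMVI cells express without added stimulus. The study asked what the loss of IκBζ does to gene expression in these cells. Both groups shared the pLKO.1 vector and the cell line, and each group rested on 1 hairpin construct.

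The proteins act at sequences in the 3′ untranslated region of their targets. Tristetraprolin (ZFP36) and its relatives ZFP36L1 and ZFP36L2 bind AU-rich elements and recruit the CCR4-NOT deadenylase, which shortens the poly(A) tail and starts decay. Regnase-1 (ZC3H12A) is an endonuclease that cleaves stem-loops in inflammatory transcripts, among them those of IL6 and NFKBIZ, ZC3H12C (Regnase-3) is its relative, and the Roquins (RC3H1, RC3H2) bind such stem-loops. KHSRP promotes decay of AU-rich transcripts, HNRNPD (AUF1) binds them with effects in either direction, and ELAVL1 (HuR) stabilizes them.

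The letters below show the class of element that the ZFP36 proteins bind, in genes of the set and in cytokine genes whose values follow. In the longest annotated 3′ untranslated region (3′UTR) of each gene, read on the transcript strand from hg38 with GENCODE 44, the nonamer TTATTTATT was found in 8.93% of 18978 genes, overlapping matches counted. The shorter ATTTA, which the nonamer contains, was found in 70.51% of them. Each line holds the first match with 10 bases on either side, in 5′ to 3′ order as DNA, and the capitals mark the nonamer.
ZFP36: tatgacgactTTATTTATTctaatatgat
ZFP36L1: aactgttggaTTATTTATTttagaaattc
ZFP36L2: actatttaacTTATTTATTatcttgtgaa
ZC3H12C: tttacacccaTTATTTATTagagatattt
RC3H2: cttagttaacTTATTTATTtctattttat
ELAVL1: atttatgtatTTATTTATTgaagtgtgaa
IL1B: gcttccctatTTATTTATTtatttgtttg
CXCL1: agtcttctatTTATTTATTtattcattag
CXCL8: atgtaaagtaTTATTTATTtgaatctaca

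The sites lie in the 3′UTR of ZFP36 (chr19:39409196-39409224, plus strand), ZFP36L1 (chr14:68788077-68788105, minus), ZFP36L2 (chr2:43223448-43223476, minus), ZC3H12C (chr11:110170157-110170185, plus), RC3H2 (chr9:122849199-122849227, minus) and ELAVL1 (chr19:7961828-7961856, minus). Those of the cytokine genes lie in IL1B (chr2:112829995-112830023, minus), CXCL1 (chr4:73870674-73870702, plus) and CXCL8 (chr4:73742664-73742692, plus). Of the 10 factors, 6 held the nonamer, RC3H2 in 2 places and the others in 1. All 3 genes of the ZFP36 family were among them, so the messages of these AU-rich element binding proteins carry the kind of letters that the proteins bind. ZC3H12A stood apart, with neither the nonamer nor a single ATTTA in 766 bases of 3′UTR, and RC3H1, KHSRP and HNRNPD held ATTTA but not the nonamer. Longer regions hold it more often, with 6.27% of genes at 500 to 2000 bases and 25.95% at 4000 bases or more. A match describes the letters and does not show a bound site. The stem-loops that Regnase-1 and the Roquins act on were not searched for.

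Reads assigned to exons come mostly from mature mRNA and reads assigned to introns mostly from unspliced transcripts. The exon change, the intron change and the difference between them were therefore taken side by side. Libraries held 22264473 to 24624839 exon reads, and introns took 7.161% to 7.46% of gene reads in shCtrl and 7.634% to 8.15% in shNFKBIZ. NFKBIZ, the targeted gene, counted 1519, 1629 and 1674 reads over its exons in the 3 controls and 474, 477 and 468 in the knockdown, a log2 fold change of -1.78 (SE 0.0581), so the labels held. Of 8 melanocyte lineage markers only MITF reached a mean of 1 TPM (a level scaled to exon length and to the library), with MLANA and SOX10 at 0 exon reads in every library, whereas 6 of 7 markers of dedifferentiated melanoma did. Their summed level was 809 to 836 TPM in shCtrl and 1041 to 1069 TPM in shNFKBIZ. The lineage sum was 3.19 to 4.23 TPM in shCtrl and 1.79 to 2.62 TPM in shNFKBIZ. None of 4 leukocyte or 2 endothelial markers reached 1 TPM. Of 3 epithelial markers 1 did, KRT14, and their sum was 0.593 to 1.048 TPM in shCtrl and 1.585 to 1.851 TPM in shNFKBIZ. The part of the marker shifts in the values below was not tested. In bulk RNA, fewer cells expressing a gene and less RNA per cell cannot be told apart.

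All 10 factors passed the filter on low exon counts. After NFKBIZ knockdown 1 of them, ZFP36L1, rose and 4 fell (ZFP36, ZC3H12A, RC3H2 and ZFP36L2) at an adjusted P of at most 0.05 in the quasi-likelihood test of edgeR. The other 5 did not pass. In CPM (counts scaled to library size and composition) the groups did not overlap in 5 of the 10, against 68.7% of all genes. Across all 13843 genes tested 65.3% were called, 32.5% higher and 32.8% lower, so the share of the set that changed was no higher than that of genes at large. With a 2-fold limit added, ZFP36L1 alone was called, against 8.96% of all genes in either direction and 3.84% higher. The median log2 change of the set was -0.02, that of all genes 0.00.

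**Figure D1:**
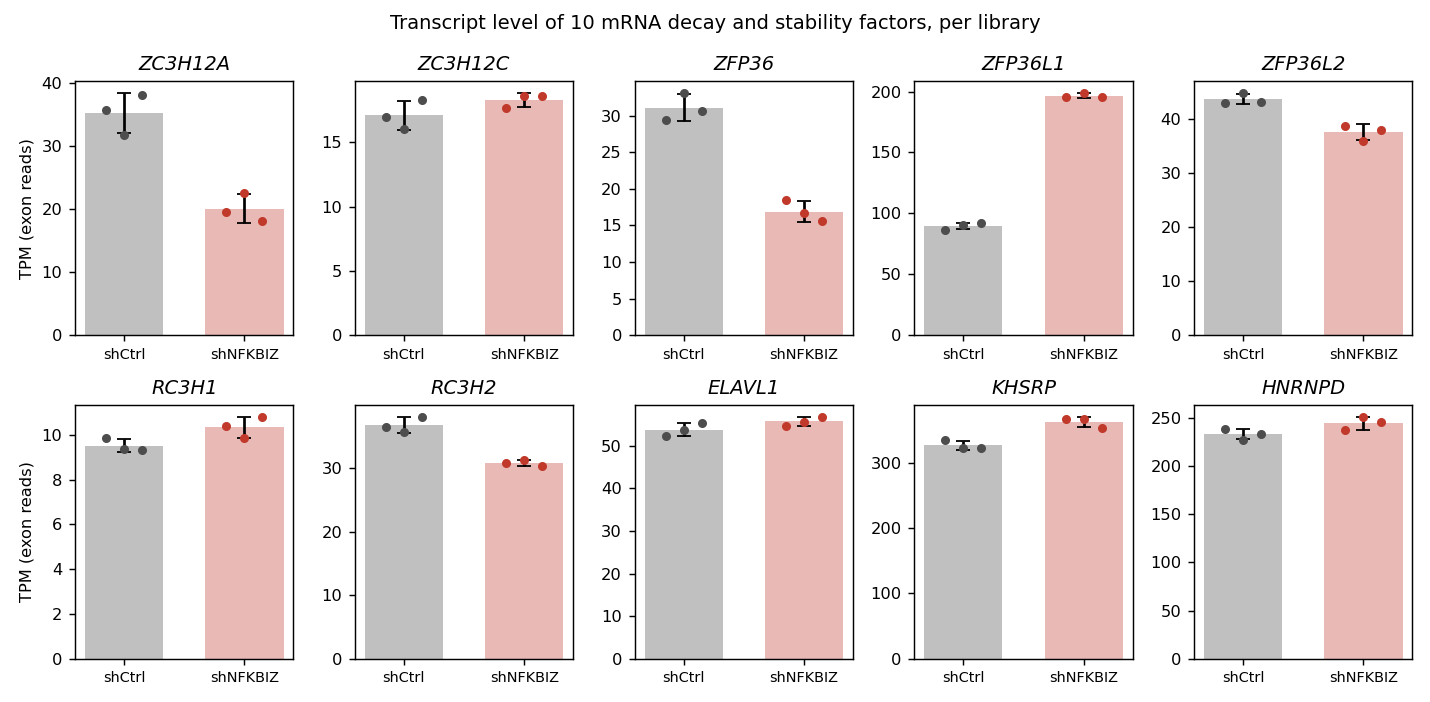
TPM of the 10 factors in each library (points), with the mean (bars) and SD (error bars) of 3 libraries per group; each panel has its own axis from 0. ZFP36L1 lies higher and ZC3H12A, ZFP36, ZFP36L2 and RC3H2 lie lower in all 3 shNFKBIZ libraries, and KHSRP separates in TPM although it was not called.

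The largest movement was within the ZFP36 family. ZFP36L1 (chr14:68787660-68796253, minus strand) counted 3479, 3748 and 3426 reads over its exons in the 3 controls and 7397, 7389 and 7518 in the knockdown. The groups lay far apart, at 89.5 ± 2.73 TPM (SD, n = 3) and 197 ± 1.91 TPM (SD, n = 3). The log2 fold change was 1.05 (SE 0.0339), 2.07-fold higher. Intron reads of ZFP36L1 moved with it, from 103, 134 and 141 to 250, 312 and 259, a log2 change of 1.03 (SE 0.104). The exon change exceeded the intron change by 0.02 on the log2 scale (95% interval -0.18 to 0.23, adjusted P 0.888), so no difference between mature and unspliced transcript was detected for this gene. It was the one factor called on intron reads, where 9 of 10 could be tested and 38.8% of all 12119 genes were called, with 19.3% called higher.

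ZFP36 (chr19:39406847-39409412, plus strand), the best studied cytokine decay factor of the family, went the other way. It counted 362, 420 and 349 reads over its exons in the 3 controls and 213, 189 and 183 in the knockdown. The lowest control library thus lay above the highest knockdown library. The level was 31.1 ± 1.84 TPM in shCtrl and 16.9 ± 1.43 TPM in shNFKBIZ (SD, n = 3), a difference of -0.96 on the log2 scale (SE 0.0871, adjusted P 2.64e-09), 1.95-fold lower. ZFP36 has a single short intron, with 16, 20 and 11 intron reads in shCtrl and 8, 14 and 6 in shNFKBIZ. These groups overlapped, and the intron change of -0.83 (95% interval -1.56 to -0.10, adjusted P 0.0646) did not pass, though it did without shCtrl replicate 3 (-1.02, adjusted P 0.0413) or without shNFKBIZ replicate 2 (-1.21, adjusted P 0.0314). At this depth the exon and intron changes could not be separated, with a difference of -0.13 (95% interval -0.84 to 0.59).

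ZFP36L2 (chr2:43222402-43226606, minus strand), the third paralog, counted 986, 1062 and 920 reads over its exons in the 3 controls and 837, 761 and 834 in the knockdown. All knockdown libraries lay below all controls, by a small margin. The level went from 43.6 ± 0.975 to 37.5 ± 1.49 TPM (SD, n = 3), and the tested log2 change was -0.30 (SE 0.0538, adjusted P 4.51e-05). The fall was not shown to exceed 1.2-fold (adjusted P 0.218), and on reads that span an exon junction it was -0.17 (adjusted P 0.694). Its introns held 2 to 11 reads per library, below the filter with all 6 libraries. The filter let it through when shCtrl replicate 3 or any shNFKBIZ replicate was left out. It was called lower without shCtrl replicate 3 (-1.44, adjusted P 0.0428) or shNFKBIZ replicate 1 (-1.79, adjusted P 0.0342), but not without shNFKBIZ replicate 2 or 3. On all 6 libraries it was not called with no filter (-1.12, adjusted P 0.146) or in DESeq2 (-1.13, adjusted P 0.291).

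Because the paralogs bind like sequences, their summed level was taken as well. The family summed to 164 ± 4.70 TPM in shCtrl and 251 ± 1.74 TPM in shNFKBIZ (SD, n = 3), so the family as a whole was higher although 2 of its 3 members fell. ZFP36L1 made up 53.7% to 55.5% of the sum in shCtrl and 77.4% to 79.1% in shNFKBIZ. ZFP36 took 18.5% to 19.7% in shCtrl and 6.25% to 7.29% in shNFKBIZ, and ZFP36L2 took 26.1% to 27.0% and 14.3% to 15.3%. The composition of this family therefore shifted in every library of the knockdown, toward the paralog that rose. These are transcript levels, and protein was not measured here.

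**Figure D2:**
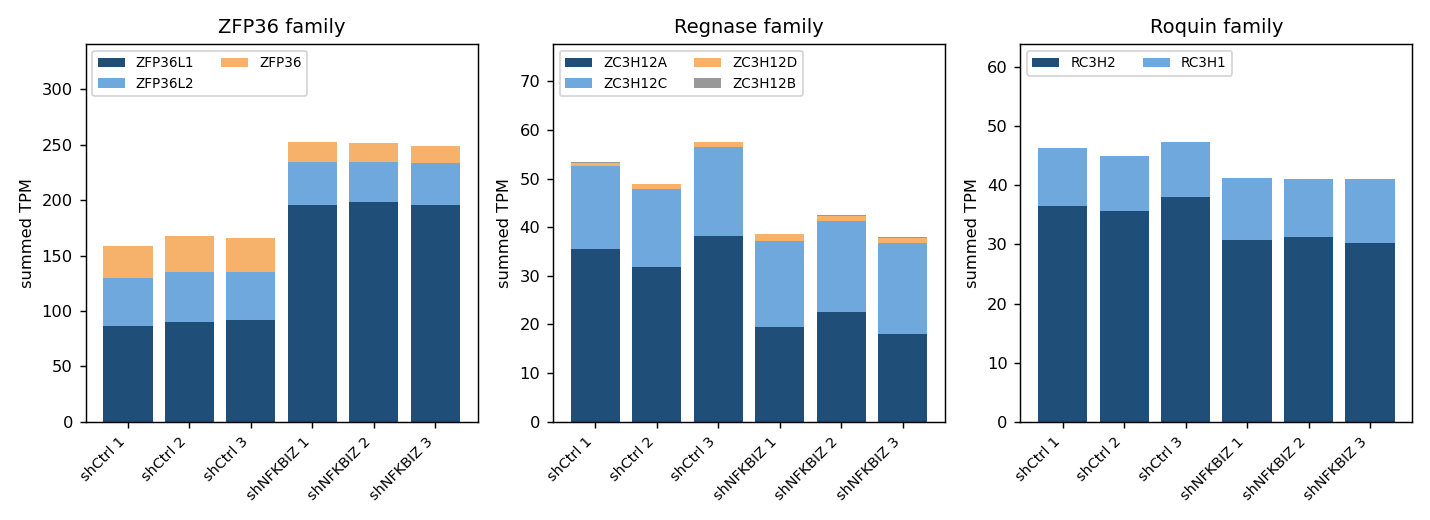
Summed TPM of the ZFP36, Regnase and Roquin families in each of 6 libraries, stacked by gene. The ZFP36 sum is higher in shNFKBIZ (249 to 252 TPM against 159 to 168 TPM) through ZFP36L1, while the Regnase sum is lower through ZC3H12A.

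ZC3H12A (chr1:37474580-37484377, plus strand) encodes Regnase-1, whose known targets include the NFKBIZ message itself. It counted 684, 631 and 679 reads over its exons in the 3 controls and 354, 401 and 332 in the knockdown. No libraries overlapped, and the level went from 35.1 ± 3.19 to 20.1 ± 2.29 TPM (SD, n = 3). This was a change of -0.89 on the log2 scale (SE 0.0746, adjusted P 1.31e-09), 1.85-fold lower. Among 9 factors tested it was the one called for a difference between its exon and intron changes. Its intron reads were 103, 127 and 109 in shCtrl and 93, 111 and 89 in shNFKBIZ, which overlapped as raw counts and not once scaled. The intron change was -0.30 (95% interval -0.55 to -0.05, adjusted P 0.051). That value sat at the threshold, and it passed in 6 of 15 alternatives, with adjusted P from 0.0371 to 0.394.

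The exon fall of ZC3H12A exceeded the intron fall by 0.59 on the log2 scale (the difference was -0.585, SE 0.136, adjusted P 0.000373). The intron share of its reads was 13.1%, 16.8% and 13.8% in shCtrl and 20.8%, 21.7% and 21.1% in shNFKBIZ, with no overlap. The difference passed in 14 alternatives and was below the limit when a 2-fold size was also required. Of 11025 genes tested for the difference 28.9% were called, 16.5% in this direction. ZC3H12A thus showed the pattern that several cytokine genes showed, described below. NFKBIZ itself showed it too, with 252, 251 and 271 intron reads against 135, 122 and 125 and a difference of -0.67 (SE 0.111, adjusted P 5.59e-07). NFKBIZ is the message the hairpin was directed against, so its difference does not count as a separate case of the pattern. NFKBIZ also shares its locus with NXPE3 on the same strand, so its intron value is uncertain.

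ZC3H12C (chr11:110093392-110171841, plus strand) did not follow its relative. It counted 1025, 999 and 1023 reads over its exons in the 3 controls and 1004, 1037 and 1073 in the knockdown, with overlapping groups. The log2 change was 0.02 (95% interval -0.09 to 0.12, adjusted P 0.791). Intron reads were 89, 93 and 92 in shCtrl and 86, 75 and 76 in shNFKBIZ, a change of -0.30 (95% interval -0.57 to -0.03, adjusted P 0.0755). Its exon change minus its intron change was 0.32 (95% interval 0.04 to 0.59, adjusted P 0.0792), opposite in sign to that of ZC3H12A, and it passed when shNFKBIZ replicate 1 was left out (0.42, adjusted P 0.0418). Removing the trend of counts with GC content and length raised the exon change to 0.14 (adjusted P 0.00925). ZC3H12C overlaps RDX on the opposite strand, and the counting did not use strand.

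The Regnase family, with ZC3H12B and ZC3H12D included, summed to 53.3 ± 4.29 TPM in shCtrl and 39.7 ± 2.45 TPM in shNFKBIZ (SD, n = 3). ZC3H12A made up 64.9% to 66.7% of this sum in shCtrl and 47.5% to 53.0% in shNFKBIZ. ZC3H12C took 31.8% to 32.8% in shCtrl and 43.8% to 49.0% in shNFKBIZ, without a called change of its own. In the knockdown the levels of ZC3H12A (18.1 to 22.6 TPM) and ZC3H12C (17.7 to 18.6 TPM) overlapped.

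The Roquins divided. RC3H2 (chr9:122844556-122905359, minus strand) counted 2622, 2645 and 2535 reads over its exons in the 3 controls and 2085, 2078 and 2083 in the knockdown, with the groups well apart and little spread. It fell by 0.34 on the log2 scale (SE 0.0374, adjusted P 7.1e-08), and the fall passed a test against 1.2-fold (adjusted P 0.0274). Its intron reads were 116, 149 and 117 against 122, 112 and 118, which overlapped, with a change of -0.21 (95% interval -0.45 to 0.03, adjusted P 0.164). The exon and intron changes of RC3H2 were not distinguishable (difference -0.13, 95% interval -0.36 to 0.11).

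RC3H1 (chr1:173931084-174022357, minus strand) counted 716, 705 and 629 reads over its exons in the 3 controls and 711, 662 and 750 in the knockdown. The groups overlapped, and the log2 change of 0.04 (95% interval -0.09 to 0.16, adjusted P 0.597) did not pass. After removal of the trend with GC content and length it was 0.15 (adjusted P 0.0152). The Roquin sum went from 46.2 ± 1.19 to 41.1 ± 0.055 TPM (SD, n = 3), of which RC3H1 took 19.7% to 21.3% in shCtrl and 23.95% to 26.25% in shNFKBIZ. In the promoter of RC3H2, 250 bases before to 50 after the start in RefSeq on GRCh38.p14, the κB motif was matched on both strands. It was the only promoter with a match among the 8 factors with an entry, against 5.91% of 35116 promoters. The factors were counted by gene, some with several promoters, and the share at large by promoter. The stretch is shown with the motif in capitals (chr9:122905569-122905598, minus strand), and the match does not show that NF-κB binds there.
RC3H2 promoter: tgaatgtgcaGGGAATTTCCcatcaatccc

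The stabilizer ELAVL1 and the AU-rich element binders KHSRP and HNRNPD showed no called change. ELAVL1 (chr19:7958573-8005659, minus strand) counted 2266, 2400 and 2227 reads over its exons in the 3 controls and 2231, 2229 and 2352 in the knockdown. Its log2 change was -0.03 (95% interval -0.11 to 0.05, adjusted P 0.493) and its intron change -0.05 (95% interval -0.23 to 0.14). The interval puts any exon change of this gene below the size of each called factor. HNRNPD (chr4:82352498-82374503, minus strand) counted 10376, 10246 and 9412 reads over its exons in the 3 controls and 9736, 10096 and 10222 in the knockdown. Its log2 change was -0.01 (95% interval -0.08 to 0.06, adjusted P 0.751), and its intron change 0.02 (95% interval -0.13 to 0.16).

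KHSRP (chr19:6413102-6424811, minus strand) counted 10742, 10669 and 9599 reads over its exons in the 3 controls and 11079, 10876 and 10825 in the knockdown. In TPM the groups did not overlap, at 326 ± 7.34 and 362 ± 8.01 (SD, n = 3), yet the tested change was 0.07 (95% interval -0.003 to 0.14, adjusted P 0.0876). TPM uses no TMM factors (trimmed mean of M-values, edgeR's correction for composition), so TPM and the tested change are scaled differently. With TMM kept, KHSRP passed on exon-exon reads (0.093, adjusted P 0.0276) and with the replicate block (0.067, adjusted P 0.0493). With library size alone the median of all genes moved to 0.09 and the share of calls that were higher went from 49.7% to 60.8%. On that scale KHSRP was at 0.16 (adjusted P 0.00015), HNRNPD turned to 0.08 (adjusted P 0.0349) and ELAVL1 to 0.06. The calls on the other 7 factors, or the lack of one, did not depend on this choice. Intron reads of KHSRP were 34, 38 and 35 in shCtrl and 43, 56 and 52 in shNFKBIZ. With TMM their change was 0.41 (95% interval 0.03 to 0.78, adjusted P 0.0786). The exon change minus the intron change was -0.34 (95% interval -0.69 to 0.01, adjusted P 0.153), the same sign as for ZC3H12A but not called.

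**Figure D3:**
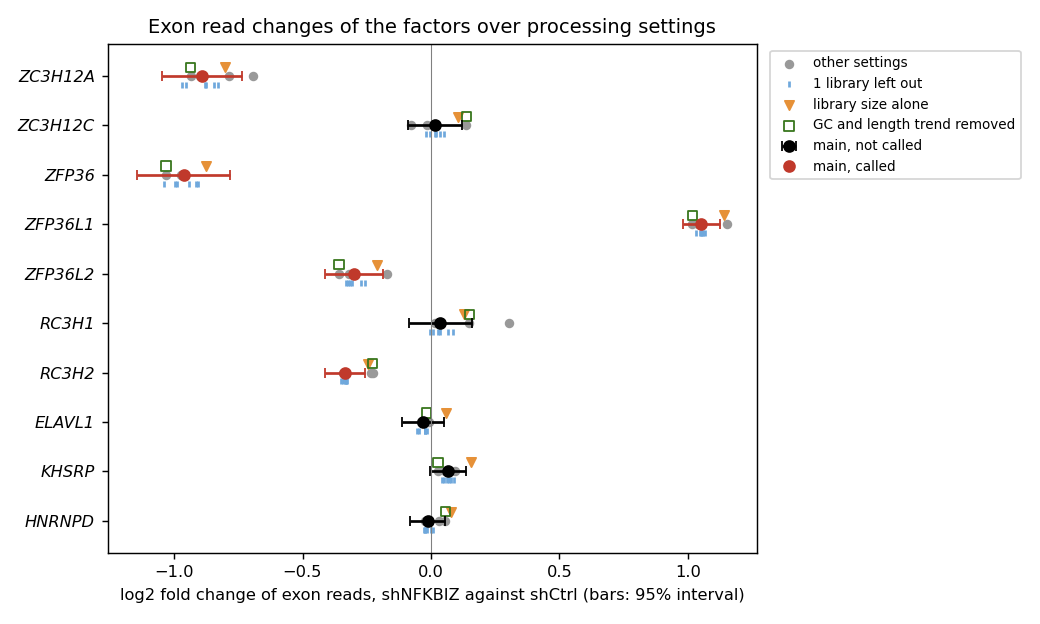
Log2 fold change of exon reads for the 10 factors (large points with 95% intervals, red where called) and under each other setting (small marks). ZC3H12A, ZFP36, ZFP36L1, ZFP36L2 and RC3H2 stay on 1 side of 0 in all settings shown, while ZC3H12C, RC3H1, ELAVL1 and HNRNPD cross it.

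Per length, KHSRP, HNRNPD, ZFP36L1, ELAVL1 and ZFP36L2 were, in this order, the most abundant of the set in shCtrl, and no neighbors among these 5 overlapped. RC3H2 (36.7 ± 1.23 TPM), ZC3H12A (35.1 ± 3.19 TPM) and ZFP36 (31.1 ± 1.84 TPM) followed, with overlap between RC3H2 and ZC3H12A and between ZC3H12A and ZFP36. ZC3H12C (17.1 ± 1.14 TPM) and RC3H1 (9.51 ± 0.287 TPM) were lowest. In shNFKBIZ the first 6 places were the same, and ZC3H12A, ZC3H12C and ZFP36 came together at 16.9 to 20.1 TPM on average. The ZFP36L1 level was 89.5 TPM against 53.8 TPM for ELAVL1 in shCtrl, and 197 TPM against 55.7 TPM in shNFKBIZ.

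Short-lived cytokine and chemokine genes, of the kind these factors are known to act on, were set beside them, together with PTGS2, which encodes the enzyme cyclooxygenase-2. Of this list of 20, 14 passed the filter on exon reads and 13 fell, 12 cytokine genes and PTGS2, each more than 2-fold (5.12% of all genes were called lower past 2-fold), while CSF1 did not pass (0.13, adjusted P 0.381). The median log2 change over all 14 tested genes was -2.01. IL6 (-5.33), IL1B (-4.96), CCL5 (-3.28), LIF (-2.58), CCL20 (-2.36) and CXCL8 (-2.32) fell most. CXCL3 (-2.12), CXCL1 (-1.89), IL1A (-1.83), CSF3 (-1.65), PTGS2 (-1.32), IL11 (-1.25) and CXCL2 (-1.23) fell less. The CCL5 value rests on few reads, 12, 25 and 24 over its exons in shCtrl and 1, 3 and 2 in shNFKBIZ (SE 0.479), so its size is uncertain. The paper proposes that IκBζ represses CCL5, and this fall runs in the opposite direction. CXCL5, CXCL6, CXCL10, CCL2, CSF2 and TNF had too few reads. The exon falls of these 13 genes were thus larger than that of any of the 10 factors.

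For 9 of these genes intron reads could be tested, and all 9 were called lower, with a median log2 change of -0.80 (19.5% of all genes were called lower on intron reads). The intron calls of IL11, CCL20 and CSF3 were weak and were lost with library size alone (adjusted P 0.0622, 0.144 and 0.0696) and in 4 of the 6 fits that left out 1 library. The exon change was below the intron change in 9 of 9, against 5713 of 11025 genes at large. The list was chosen with earlier results of these data known, so such counts are a description. The difference was called in 6 of the 9 (16.5% of all genes were called lower), with a median of -0.66 over the 9, against -0.02 over all genes. Those 6 were CCL20 (-2.17, SE 0.0741), IL1B (-1.18, SE 0.138), CXCL1 (-1.17, SE 0.177), CSF3 (-1.10, SE 0.217), IL1A (-0.66, SE 0.0624) and CXCL2 (-0.43, SE 0.14). IL11 (-0.61, adjusted P 0.0595), CXCL8 (-0.45, adjusted P 0.0821) and LIF (-0.10, adjusted P 0.884) did not pass. CXCL2 lost its call without shCtrl replicate 3 (adjusted P 0.0707), without shNFKBIZ replicate 2 (0.107) and without shNFKBIZ replicate 3 (0.0566), and CXCL1 when libraries were not treated as blocks (0.0623).

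CCL20, a chemokine for CCR6-bearing lymphocytes, showed the widest gap. It counted 3515, 3562 and 3624 reads over its exons in the 3 controls and 657, 734 and 715 in the knockdown. Its intron reads were 535, 475 and 531 against 431, 529 and 478, which overlapped. The gene as counted begins at chr2:227805739, upstream of its RefSeq promoter, where a κB motif match lies at chr2:227813753-227813782 (base -79). Intron counts could thus include reads from before that promoter, which was not tested, so the CCL20 intron value is uncertain. The intron share of CCL20 was 11.8% to 13.2% in shCtrl and 39.6% to 41.9% in shNFKBIZ. IL1B, by contrast, fell steeply in both, from 605, 701 and 698 to 45, 50 and 61 intron reads, a log2 change of -3.77 (SE 0.103). LIF introns held 20 to 32 reads in shCtrl and 4 to 6 in shNFKBIZ.

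**Figure D4:**
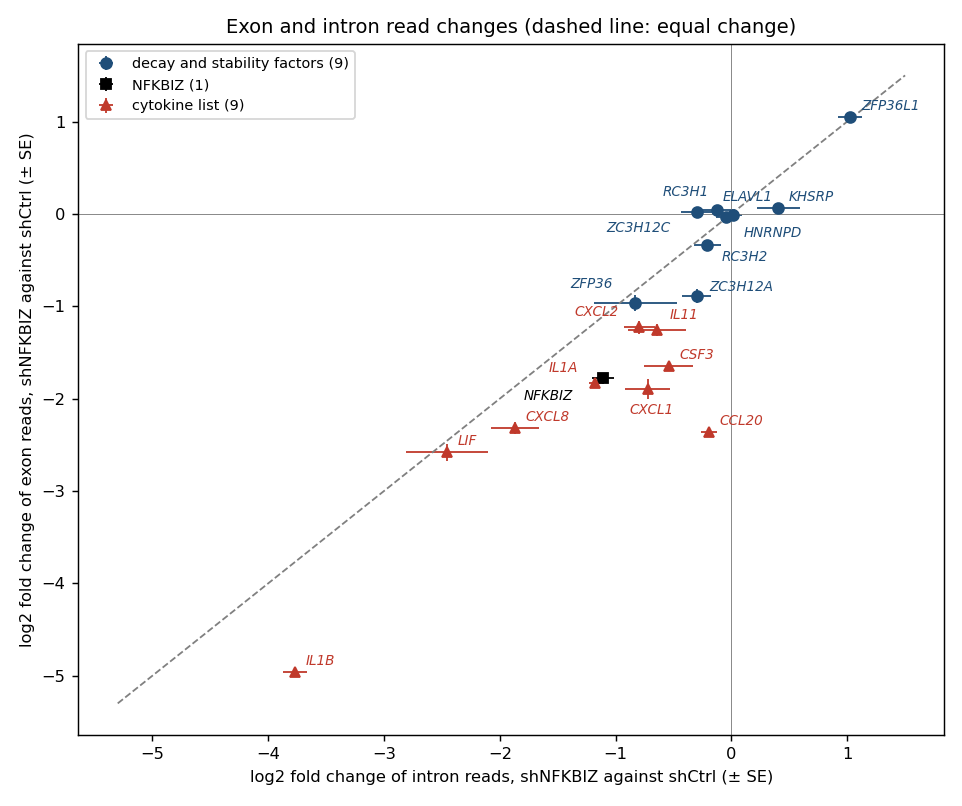
Log2 fold change of exon reads (vertical, ± SE) against that of intron reads (horizontal, ± SE) for 9 factors, NFKBIZ and 9 cytokine genes, with equal change on the dashed line. ZFP36L1 and ZFP36 lie at the line, and ZC3H12A (-0.89 against -0.30) lies below it, as CCL20 (-2.36 against -0.19), CXCL1 and CSF3 do.

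Side by side, the exon change was below the intron change in 9 of 9 cytokine genes, with the difference called in 6, while ZFP36L1 rose, ZFP36, ZC3H12A, ZFP36L2 and RC3H2 fell, and the stabilizer ELAVL1 did not pass. The changes of the decay factors ran in both directions. Whether they have any part in the cytokine pattern was not tested, because neither decay rates nor binding were measured in these libraries. The pattern was also common among genes that fell. Of 471 genes that fell at least 2-fold in exon reads and could be tested, 37.6% were called lower for the difference and 76.9% had a negative one, with a median of -0.40. These genes were chosen by their exon change, which is a part of the difference, so the figures are a description only.

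This difference overlapped between cytokine genes with and without the nonamer. In the 6 tested genes with TTATTTATT in the 3′UTR (IL1B, IL11, LIF, CXCL1, CXCL2 and CXCL8) it ran from -1.18 to -0.10 with a median of -0.53. In the 3 without it (IL1A, CCL20 and CSF3) it ran from -2.17 to -0.66 with a median of -1.10. These 3 held the shorter ATTTA all the same, with 5 in IL1A, 7 in CSF3 and 3 in the 481 bases of CCL20. The split therefore does not part AU-rich genes from others. CCL20, with the widest gap, also has an uncertain intron value, and any part of these elements was not tested. These counts are small and are given as a description.

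**Figure D5:**
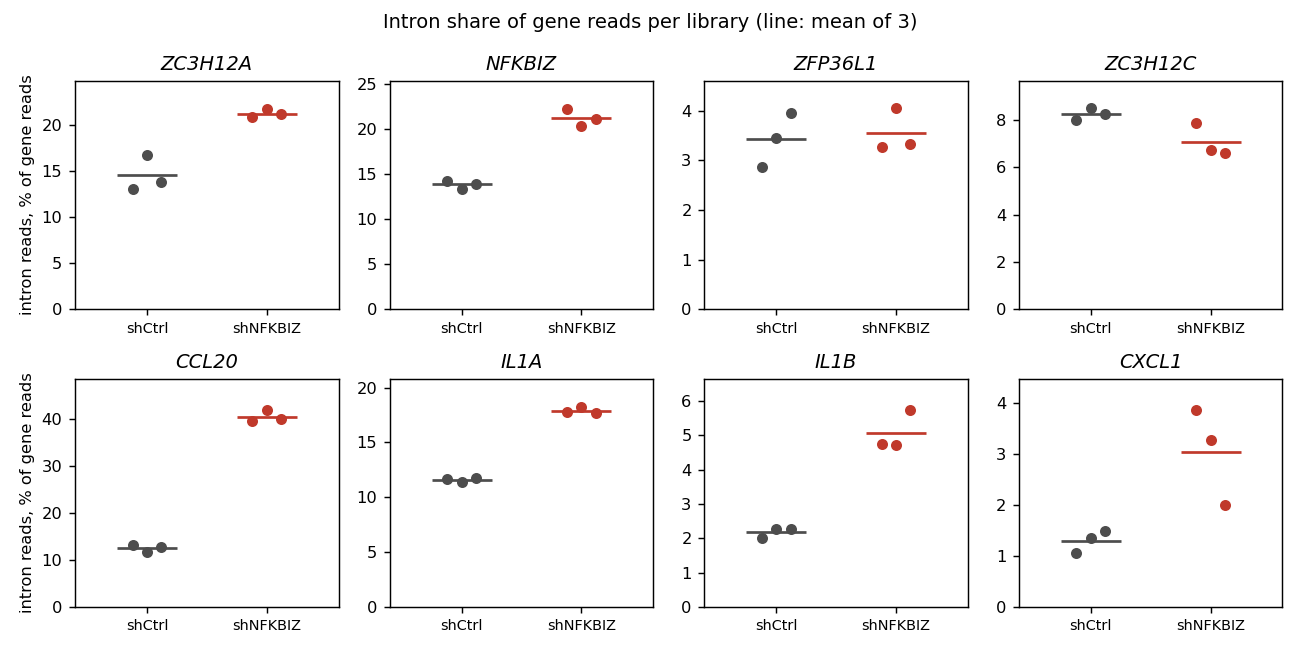
Intron reads as a percentage of all reads of a gene in each library (points) with the group mean (line), for 3 factors, NFKBIZ and 4 cytokine genes; each panel has its own axis from 0. The share is higher in all 3 shNFKBIZ libraries for ZC3H12A (20.8% to 21.7% against 13.1% to 16.8%), NFKBIZ, CCL20, IL1A, IL1B and CXCL1, and overlaps for ZFP36L1.

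Decay factors work through shared enzymes, so 57 genes of the mRNA decay machinery were read in the same fit. All 57 were tested, and 21 were called higher and 19 lower, with a median log2 change of 0.02. With library size alone 28 were called higher and 15 lower. The share called is close to the 65.3% of all genes. Past 2-fold were 2 of the 57, BTG2 (1.07, SE 0.125) and TOB1 (-1.05, SE 0.0969), against 8.96% of all genes. Both are adaptors that link RNA-binding proteins to the CCR4-NOT deadenylase. Among the 18 deadenylation genes 5 rose and 9 fell. CNOT1, the scaffold on which the ZFP36 proteins dock, fell by 0.81 (SE 0.0352, adjusted P 1.07e-14), and the catalytic subunits CNOT6 and CNOT6L fell by 0.59 (SE 0.0429) and 0.75 (SE 0.069). CNOT1, CNOT6 and CNOT6L were named for their low adjusted P, and the other CNOT genes called ran in both directions. CNOT2 (0.13), CNOT4 (0.20), CNOT9 (0.35) and CNOT11 (0.16) were higher. CNOT3 (-0.37), CNOT7 (-0.18) and CNOT8 (-0.43) were lower. BTG2 and TOB1 went opposite ways.

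Of 15 decapping and 5′ decay genes 7 rose and 3 fell, against 65.3% of all genes called (32.5% higher, 32.8% lower). DCP2, the decapping enzyme, was at 0.51 (SE 0.042), and the Lsm ring genes LSM4 and LSM2 were at 0.28 (SE 0.0371) and -0.46 (SE 0.0492), all called. Of 16 exosome genes 5 rose and 5 fell, with DIS3L, a cytoplasmic exosome nuclease, at 0.69 (SE 0.0564), EXOSC6 at 0.54 (SE 0.0512) and EXOSC2 at 0.45 (SE 0.0379). These 3 were named for their low adjusted P. Among the 5 that fell were DIS3 (-0.41), EXOSC1 (-0.43) and EXOSC9 (-0.49). Of 8 nonsense-mediated decay genes 4 rose and 2 fell, with UPF3A at 0.48 (SE 0.0532), SMG1 at -0.30 (SE 0.0331) and SMG6 at -0.27 (SE 0.04). The same share of all genes stands beside the exosome and nonsense-mediated decay counts, and no one of these groups moved as a block.

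Among 27 other CCCH and AU-rich element binding genes 24 were tested, of which 9 rose and 5 fell, against 65.3% of all genes called (32.5% higher, 32.8% lower). ZC3HAV1, the antiviral zinc finger protein ZAP, fell by 1.22 (SE 0.0515, adjusted P 6.89e-15), past 2-fold. IGF2BP1, which stabilizes its targets, was at -0.75 (SE 0.0597), and the m6A reader YTHDF1 at 0.37 (SE 0.0391). Of 29 kinases and other regulators of the factors 4 rose and 13 fell, a share below the 65.3% of all genes, with more lower than higher calls. BCL10, a partner of the protease MALT1 that cleaves Regnase-1 and Roquin-1, fell by 0.97 (SE 0.0547), and TRAF3IP2 (Act1), an adaptor of the interleukin-17 receptor, fell by 0.88 (SE 0.0621). MAP2K6, an upstream kinase of p38, was at -1.05 (SE 0.303, adjusted P 0.0045) on 10 to 27 exon reads per library, and its call was lost in DESeq2 (adjusted P 0.0901). YWHAZ, a 14-3-3 protein of the kind that binds phosphorylated ZFP36, was at -0.62 (SE 0.0374).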

How the data were processed

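The authors used CLC Genomics Workbench to map paired-end reads to GRCh38 (hg38), with Ensembl gene models, and deposited 1 table per library, with whole-number counts of exon, intron and exon-exon reads per gene, total and unique. Strand was not used. The deposited TPM, written with a decimal comma, were computed again from exon reads per exon length (largest difference 4.98e-07 TPM). Of the genes, 99.97% were found in GENCODE 44. Libraries held 22264473 to 24624839 exon reads. The methods of the study state independent biological replicates. The labels do not name separate cultures, so P values measure the spread between these libraries.

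Total exon counts of all genes (filterByExpr, TMM) were compared in edgeR 4.0.16 (R 4.3.3) by its quasi-likelihood test, which was two-sided, and P values were adjusted by Benjamini-Hochberg over all genes tested, with a threshold of 0.05. Intron reads were fitted likewise. The exon change minus the intron change was tested in a joint fit with the library as a block, over genes that passed both filters. SE was the size of the log2 change divided by the square root of F. DESeq2 1.42.0, other scaling, filters, read types, a 1.2-fold limit (glmTreat) and leaving out each library were alternatives, and scripts were tested on simulated data. Named were all 10 factors, NFKBIZ, the cytokine list and, from each other list, the 3 genes with the lowest adjusted P among those called on exon reads with a mean of at least 50 counts and groups apart in CPM (counts scaled to library size and TMM factors), plus any gene past 2-fold. Members and lists were chosen with earlier results of these data known.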

Additional observations from a re-analysis of the deposited data

How the results depend on the processing

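Calls on ZC3H12A, ZFP36, ZFP36L1 and RC3H2 (exon reads) and on the exon-intron difference of ZC3H12A passed in every alternative run except a 2-fold limit, which left 1 of 5 factors called on exon reads, 0 of 1 for the difference, and 2 of 40 decay machinery genes (18 in a test against 1.2-fold). Leaving out 1 library gave 5 factors each time on exon reads, 1 to 3 on intron reads and 1 to 2 for the difference (2 without shNFKBIZ replicate 1). Calls on intron reads numbered 2 instead of 1 with relative log expression factors, library size alone, a minimum of 10 counts, unique reads and the replicate block. KHSRP intron reads were called with library size alone (0.46, adjusted P 0.0428), and in the other 4 settings ZC3H12A was the gene added.

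Values near 0 changed sign, and the cause was not tested. On exon reads ZC3H12C was at -0.015 with total gene reads and -0.079 with exon-exon reads (-0.021 to 0.05 when 1 library was left out), and RC3H1 ran from -0.002 to 0.084 in such fits and was at 0.304 with exon-exon reads, where it did not pass. ELAVL1 was at 0.058 with library size alone. HNRNPD was at 0.077 with library size alone, 0.056 without the trend on GC content and length, with or without the block, and 0.033 with exon-exon reads (-0.028 to 0.007 when 1 library was left out). CSF1 was at -0.46 with exon-exon reads. On intron reads ELAVL1 was at 0.012 with library size alone, and HNRNPD ran from -0.031 to 0.061 over single libraries left out. For the difference the leave-one-out ranges were -0.32 to 0.28 for ZFP36, -0.072 to 0.129 for ZFP36L1, -0.004 to 0.042 for ELAVL1, -0.054 to 0.009 for HNRNPD (0.004 with library size alone) and -0.27 to 0.11 for LIF. ZFP36 had too few exon-exon reads to fit. Fits with junction-spanning reads, and with the block and the GC trend together, were chosen after seeing the data.

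Replicate numbers did not pair the samples by the rule used (correlations of deviations 0.021, 0.056 and 0.029), although each library correlated best with its own number. With the replicate block 9303 genes were called on exon reads instead of 9039, and KHSRP passed (0.07, adjusted P 0.0493). With 3 libraries per group, intron reads limit what can be seen for ZFP36, ZFP36L2 and most cytokines.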

Other observations

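Other short-lived transcripts, outside the cytokine list, moved in both directions. Of 20 such genes 20 were tested, and 5 rose and 12 fell, with a median log2 change of -0.30, against 65.3% of all genes called (32.5% higher, 32.8% lower). IER3 (-1.86, SE 0.0385), PLAU (-1.13, SE 0.137), DUSP1 (-1.05, SE 0.0567) and BIRC3 (-1.01, SE 0.0427) fell past 2-fold, and CCND1 rose by 1.16 (SE 0.0353). Of all genes 5.12% were called lower and 3.84% higher past 2-fold. For 11 of the 20 the exon and intron changes could be compared. The difference was called lower in 1 and higher in 4, with a median of 0.11 (28.9% of all genes were called, 16.5% lower), whereas over the 9 cytokine genes the median was -0.66. The medians are given as descriptions of these lists.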
